A study of Mus musculus with 3 samples.

Results

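Collagens and the glycoproteins and proteoglycans of the extracellular matrix were measured by 76 probes, naming 66 genes, of the 26423 probes on the array. A probe belonged to the set when its platform gene symbol was a collagen chain, a laminin chain, a thrombospondin, or Fn1, Sparc, Spp1, Vtn, Tnc, Dcn, Lum, Bgn, Nid1 or Nid2. Collagens gave 48 probes, laminins 11, thrombospondins 5 and the remaining glycoproteins and proteoglycans 12. The rule reads names and not levels, although the families were picked with earlier results of these data known. The 2 probes of Cert1, which the platform lists under the old name Col4a3bp, were left out because the gene encodes a ceramide transporter and no collagen chain.

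The arrays measured RNA from mouse myeloid leukaemia cells in culture. The resistant group was 1 array of the line B117HS, grown out of B117P during about 10 weeks of stepwise exposure to rising Ara-C (cytarabine), and the labels put its IC50 at about 10 times the parental value. The sensitive group was 2 arrays of the parental line B117P. Both lines come from the strain BXH-2, a recombinant inbred strain whose leukaemias arise through retroviral insertion, and both are labelled as bone marrow and acute leukaemia cells; no source used here tells whether B117HS is 1 clone. Separate cultures are not named for the parental arrays. The p-values therefore reflect the spread between those 2 arrays alone, which may be technical, and the single resistant array has no spread of its own. The test pools that spread over all 26423 probes, with a prior of 13.1 degrees of freedom against 1 for the probe itself. An SE or p-value is thus mostly not a measure of the probe's own spread.

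Collagens are proteins of 3 chains wound into a helix, and each type is built from its own set of chains. They are trimmed, hydroxylated and folded in the endoplasmic reticulum before they are secreted into fibrils, sheet-like networks or membrane-bound forms. Laminins, nidogens and collagen IV build the basement membrane, while fibronectin, vitronectin, thrombospondins and osteopontin bind cells through integrins and other receptors. In bone marrow the matrix is laid down mainly by stromal, bone and endothelial cells, and leukaemia cells attach to it.

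Most of the matrix set was dim in these cells, and a small number of its members differed widely between the lines. Col9a1, Thbs1, Col4a2 and Col17a1 rose in resistant cells. Col19a1, Nid2, Fn1, Col11a2, Bgn and Col4a4 fell. Vtn, Col7a1 and Col5a3 were lower on the deposited scale only. Spp1 and Lamc1 read over 500 units on all 3 arrays and were not called. In such bulk samples, fewer cells of a type and less RNA per cell cannot be told apart.

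The resistant array was the dimmer one, with a median of 24.9 units over all probes against 58.4 and 72.5 on the sensitive arrays. Differences are resistant minus sensitive in log2(intensity + 50), which understates the change of dim probes. Calls needed a limma p below 0.05, adjusted by Benjamini-Hochberg over all 26423 probes. They also needed a size of 1 or more in log2 units against each sensitive array, with 1 sign. Each array was also scaled to a common median over the 4341 probes of at least 500 units on all 3 arrays, which multiplied the resistant values by 1.51 and moved the median difference of all probes to -0.11, from -0.27 as deposited. "Rose" and "fell" are used of probes called on both scales, and the log2 differences printed are those as deposited unless a sentence says otherwise. The sensitive arrays correlated at 0.991 across probes (Pearson's r of log2 values, a description in which probes are not independent), and the resistant array at 0.888 and 0.889 with them. Mpo, a primary granule enzyme of myeloid cells, and Ptprc, the pan-leukocyte CD45, were bright on every array. They read 80905 and 6725 units on the resistant array. On the sensitive arrays Mpo read 76710 and 84138 units and Ptprc 8096 and 8219. Not all such markers were as even: of 12 listed, none rose and 2 fell, Spi1 and Coro1a (values below).

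As deposited, 4 of the 76 probes were called higher (5.26%), where 4.36% of all probes were, and 9 were called lower (11.8%), where 15.5% were. With the arrays scaled, 4 of the set were called higher against 7.26% of all probes, and 6 lower against 8.48%. On both scales 4 rose and 6 fell (7.89% of the set), while 4.35% of all probes rose and 8.42% fell. Over probes of every level these shares lay near those of the whole array, but the set was the dimmer one, so they say little about its members. Among probes reaching 50 units on any array, 14.8% of 27 members rose and 22.2% fell, against 7.43% and 14.4% of all such probes. That cut admits a probe through the array where it was high, and the gap was not tested. The median log2 difference of the 76 probes was -0.15, against -0.27 over all probes. Of the 76 probes, 49 (64.5%) read below 50 units on all 3 arrays, against 41.4% of all probes, and 9 (11.8%) reached 500 units on at least 1 array, against 27.2%. Between the sensitive arrays no probe of the set differed by 1 or more on the log2 scale, the widest difference being 0.71 (Spp1). Of all 26423 probes 205 did, so few that none among 76 does not set these probes apart.

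**Figure D1:**
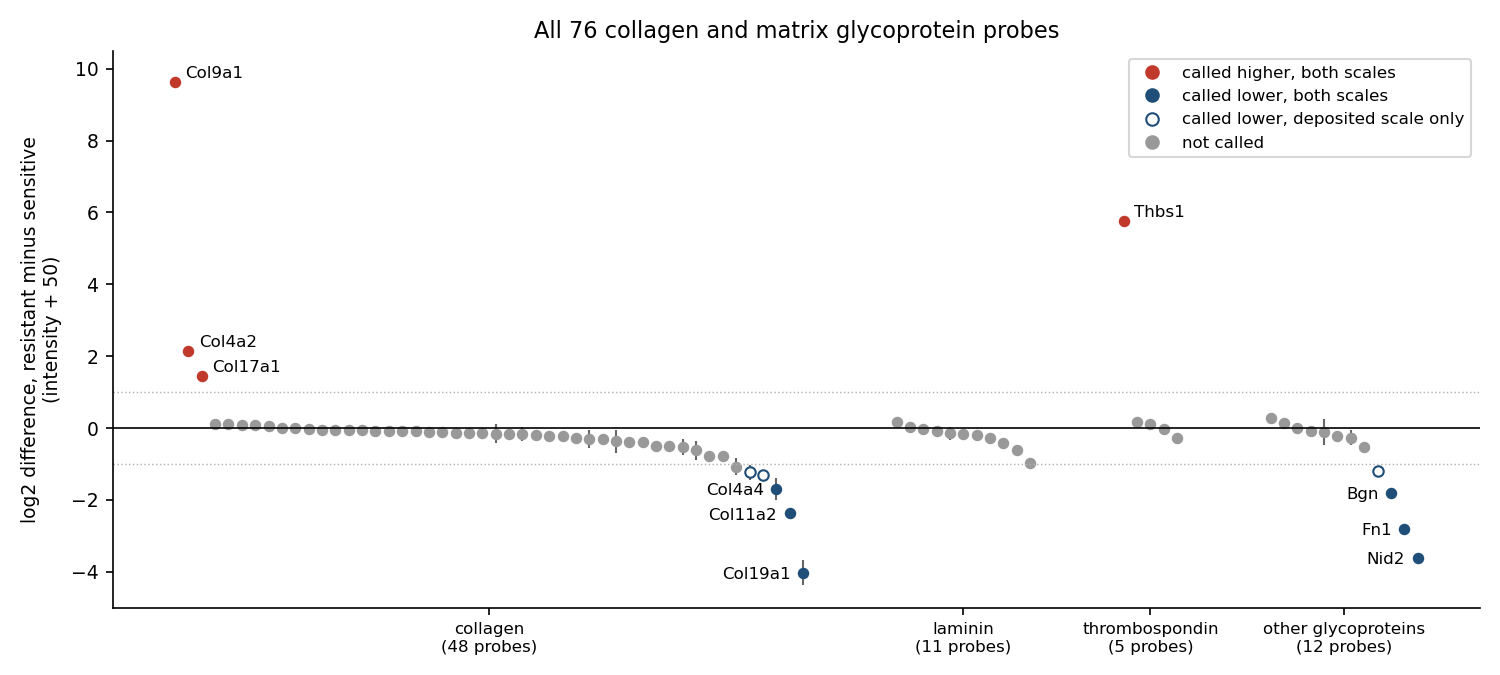
The log2 difference between the resistant array and the mean of the sensitive arrays is plotted for all 76 probes, ordered by size within each family; vertical bars run between the differences from either sensitive array. Col9a1 and Thbs1 stand far above the rest, at 9.62 and 5.76, and most probes lie between the dotted lines at 1 and -1.

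**Figure D2:**
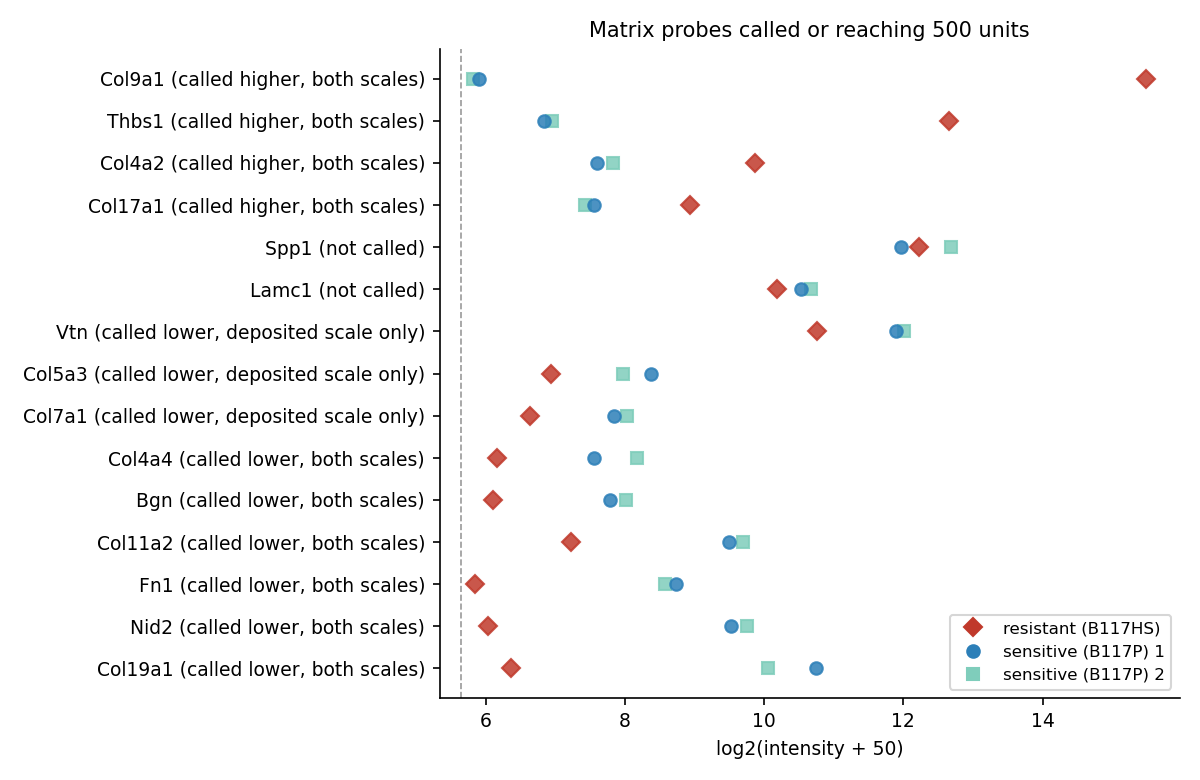
Values on each of the 3 arrays, as log2(intensity + 50), are plotted for the 15 probes that were called or that reached 500 units; the dashed line marks an intensity of 0. The resistant array lies right of both sensitive arrays for the 4 probes called higher, left of both for the 9 called lower, and between them for Spp1.

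The FACIT collagens, which sit on the surface of fibrils and have interrupted helices, held both the widest rise and the widest fall of the set. Col9a1, a chain of collagen IX of cartilage, read 45870 units on the resistant array, against 9.94 and 6.60 on the sensitive arrays. This was the widest rise of all 26423 probes, at 9.62 on the log2 scale (SE 0.25, limma adjusted p = 2.36e-11). Its size depends on the offset, at 8.73 with an offset of 100 and 10.89 with 16. Col9a1 has a single probe, which read under 10 units on both sensitive arrays, and whether that spot worked there was not tested. Collagen IX needs the products of Col9a2 and Col9a3 as well. Those probes read 18.7 and 7.78 units on the resistant array, against 44.7 and 47.5 (Col9a2) and 13.7 and 14.5 (Col9a3) on the sensitive arrays, and neither was called.

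Col9a1 has alternative starts, an upstream one used in cartilage and a downstream one used in the eye, and the single probe was not placed relative to them. RefSeq's GRCm38.p6 table gives a window of 300 bases (250 before and 50 after the start) for each, shown here because this gene carries the widest rise. The starts in that table lie 17593 bases apart on the plus strand of chromosome 1, at chr1:24177360-24177659 and chr1:24194953-24195252. Capitals mark CCAAT, searched on both strands, which 37.4% of all 32851 promoter windows hold.

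Col9a1 upstream start: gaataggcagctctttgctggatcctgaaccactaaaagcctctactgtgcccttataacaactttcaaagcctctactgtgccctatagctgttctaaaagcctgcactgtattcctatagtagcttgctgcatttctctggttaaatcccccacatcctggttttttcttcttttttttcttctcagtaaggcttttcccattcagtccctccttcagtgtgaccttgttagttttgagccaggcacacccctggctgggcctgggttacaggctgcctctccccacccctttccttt
Col9a1 downstream start: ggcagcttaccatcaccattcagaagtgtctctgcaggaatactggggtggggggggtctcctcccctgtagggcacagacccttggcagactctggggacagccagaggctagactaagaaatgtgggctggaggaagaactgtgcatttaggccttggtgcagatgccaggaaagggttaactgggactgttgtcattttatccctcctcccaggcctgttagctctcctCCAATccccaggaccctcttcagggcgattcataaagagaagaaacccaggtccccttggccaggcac

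The downstream window held 1 CCAAT and the upstream one held none. Neither held TATAAA (13.6% of all windows) or GGGCGG (35.7%), also searched on both strands. The upstream window had 47.3% G and C and no CpG, and the downstream one 55.7% and 1 CpG, against medians of 52.7% and 7 over all windows.

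Col19a1, another FACIT chain, found in muscle and brain, fell. It read 32.7 units on the resistant array, against 1661 and 1012 on the sensitive arrays (-4.03 on the log2 scale, SE 0.29, limma adjusted p = 1.24e-07). The remaining FACIT probes, Col12a1, Col14a1, Col16a1, Col20a1 and Col22a1, were not called. Col20a1 read 244 units against 316 and 350, and Col14a1 read 28.0 units against 39.8 and 50.1. Col12a1, Col16a1 and Col22a1 stayed below 18 units on every array.

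Col9a1 and Col19a1 are neighbours on chromosome 1 and are read towards each other, with no other measured gene between them. The 5 measured genes on either side were looked up after the values of this pair had been seen. Of these 10 genes, 3 were called lower as deposited, 1 of which fell, and none was called higher. Over all 17742 genes, 18.5% were called lower as deposited and 5.23% higher. Only 5 of the 10 reached 50 units on any array. Fam135a, next to Col9a1, fell to 373 units in resistant cells, against 1364 and 1269 in sensitive cells (log2 difference -1.69). Lmbrd1, a lysosomal cobalamin transporter gene next to Col19a1, read 832 units against 806 and 596 and was not called (0.25). A rise like that of Col9a1 was not seen among these 10 genes, and whether position played a part was not tested.

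**Figure D3:**
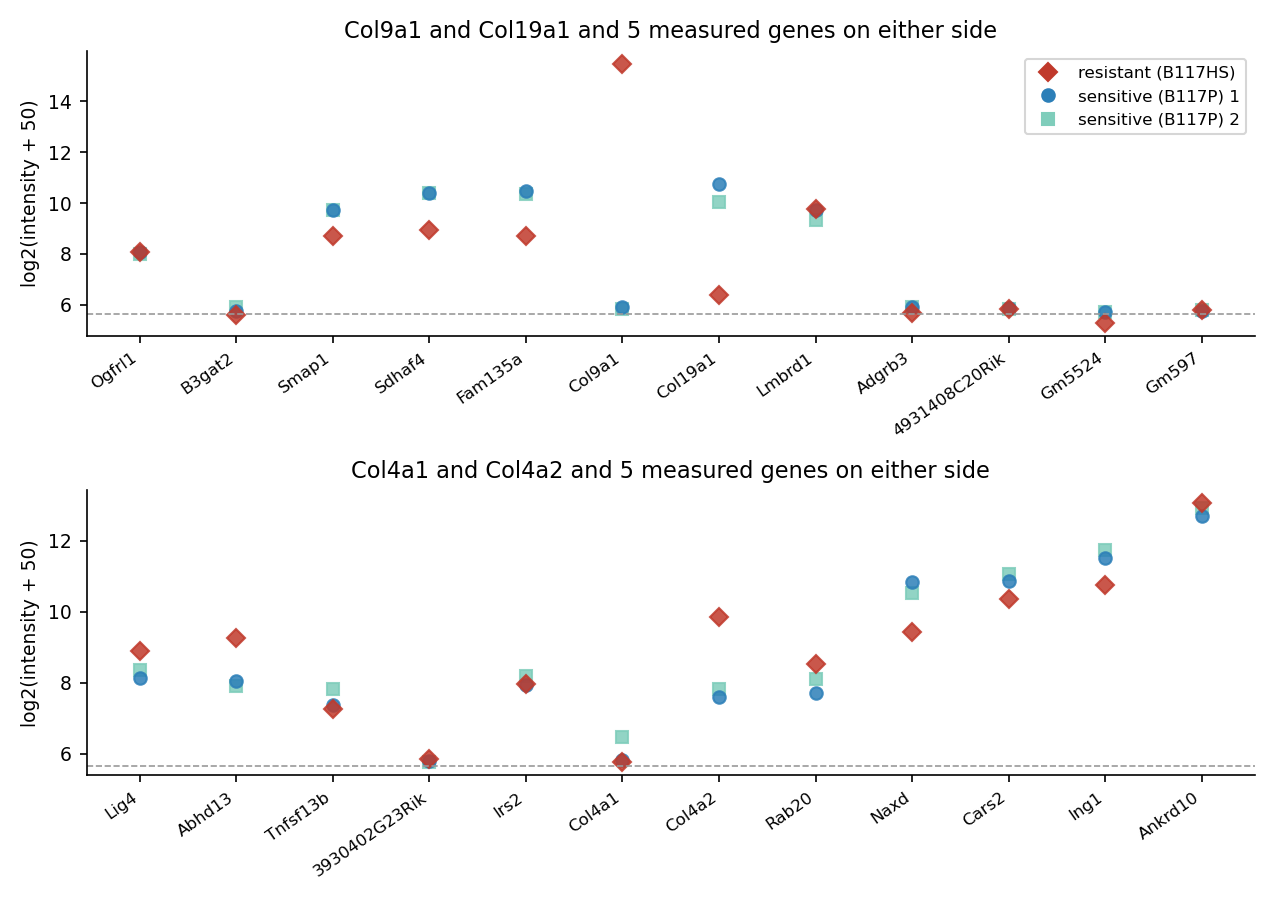
Values on the 3 arrays, as log2(intensity + 50), are plotted for Col9a1 with Col19a1 (top) and Col4a1 with Col4a2 (bottom) and for the 5 measured genes on either side, in their order along the chromosome and not to scale; the dashed line marks an intensity of 0. In the top panel only Col9a1 has the resistant array far above both sensitive arrays, and in the bottom panel Col4a2 and Abhd13 were called higher while Col4a1 was not.

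Of the network collagens, which form sheets, Col4a2 rose and Col4a4 fell. Col4a2, a chain of the collagen IV found in nearly every basement membrane, read 884 units on the resistant array, against 144 and 177 on the sensitive arrays (log2 difference 2.15, SE 0.26, limma adjusted p = 1.91e-05). Its partner chain Col4a1 read 4.67 units, against 6.21 and 38.3, and was not called (log2 difference -0.37, adjusted p = 0.18). Collagen IV of this kind is assembled from both chains. Levels of different probes were not compared, and the Col4a1 probe read under 40 units on all 3 arrays.

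The pair is a textbook case of genes read in opposite directions from a shared promoter, so the windows of both are shown (RefSeq, GRCm38.p6). Col4a1 lies on the minus strand, with its window at chr8:11312777-11313076, and Col4a2 on the plus strand, at chr8:11312555-11312854. The starts in the table are 21 bases apart, and capitals mark the 78 bases that both windows hold, each the reverse complement of the other.

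Col4a1: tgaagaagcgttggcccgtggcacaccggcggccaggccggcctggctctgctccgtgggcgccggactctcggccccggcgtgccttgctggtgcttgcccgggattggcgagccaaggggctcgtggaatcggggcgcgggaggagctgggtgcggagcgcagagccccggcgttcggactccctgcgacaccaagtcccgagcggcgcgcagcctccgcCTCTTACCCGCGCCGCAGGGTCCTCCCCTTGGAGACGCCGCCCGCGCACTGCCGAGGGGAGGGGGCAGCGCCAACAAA
Col4a2: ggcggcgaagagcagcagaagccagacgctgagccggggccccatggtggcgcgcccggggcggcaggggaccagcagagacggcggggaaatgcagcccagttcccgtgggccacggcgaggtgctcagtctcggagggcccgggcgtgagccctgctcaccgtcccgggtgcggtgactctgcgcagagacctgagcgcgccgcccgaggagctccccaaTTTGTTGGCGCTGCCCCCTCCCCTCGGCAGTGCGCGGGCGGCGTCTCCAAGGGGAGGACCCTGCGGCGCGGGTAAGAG

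Both windows were rich in G and C, at 74.0% for Col4a1 and 73.7% for Col4a2, with 37 and 33 CpG. GGGCGG was found once in the Col4a1 window and 3 times in that of Col4a2, on either strand, and CCAAT once in each. Of the 10 measured genes around the pair, Abhd13 rose, to 565 units in resistant cells against 212 and 193 in sensitive cells, and 1 was called lower as deposited (Naxd, -1.25). Lig4, at 423 units against 229 and 280, was called higher after scaling only. Over all 17742 genes, 5.21% rose and 18.5% were called lower as deposited. Whether position played a part was not tested.

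Col4a4, a chain of the collagen IV of the kidney filter, had 3 probes that disagreed. The called one read 21.8 units in resistant cells, against 138 and 239 in sensitive cells, and fell (log2 difference -1.70, SE 0.32, limma adjusted p = 6.94e-04). The others read 6.22 and -1.56 units on the resistant array and at most 5.28 on the sensitive arrays, so the fall rests on 1 of 3 probes. Its partner chains Col4a3 and Col4a5 were dim: Col4a3 read 15.6 units against 17.4 and 19.8, and the Col4a5 probes lay at 26.4 or below against at most 44.8. The probes of Col4a6, Col8a1, Col8a2 and Col10a1 were at 10.9 units or below on the resistant array and at most 19.8 on the sensitive arrays.

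Fibrillar collagens, the rope-like types of skin, bone, tendon and cartilage, gave 12 probes, of which 9 read below 50 units on all 3 arrays. Col11a2, a chain of cartilage collagen XI, fell to 99.6 units in resistant cells, against 672 and 783 in sensitive cells (log2 difference -2.38, SE 0.25, limma adjusted p = 5.56e-06). Col5a3, a chain of collagen V, read 73.1 units against 283 and 202; it was called lower as deposited (-1.23, limma adjusted p = 0.0037) and not after scaling (-0.85, adjusted p = 0.096). The 10 other fibrillar probes, for Col1a1, Col1a2, Col2a1, Col3a1, Col5a1, Col5a2, Col11a1, Col24a1 (2 probes) and Col27a1, read between -6.22 and 15.6 units on the resistant array, against -1.24 to 41.0 and 1.32 to 54.1 on the sensitive arrays. None of these 10 was called; Col2a1, the main cartilage collagen chain, read 12.4 units against 27.3 and 54.1, and Col1a1, the main chain of bone and skin collagen, read 0 units against 41.0 and 30.3.

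Among the membrane-spanning collagens Col17a1 rose, the chain that anchors epithelial cells through hemidesmosomes. It read 440 units in resistant cells, against 139 and 121 in sensitive cells (log2 difference 1.45, SE 0.27, limma adjusted p = 7.37e-04). The probes of Col13a1, Col23a1 and Col25a1 read 7.78 to 28.0 units on the resistant array, and 1.24 to 22.4 and 5.28 to 54.1 on the sensitive arrays, without a call. Col7a1, the anchoring fibril chain, read 49.8 units against 180 and 212; its log2 difference was -1.30 as deposited and -0.97 after scaling, just short of the size asked. The 9 remaining collagen probes, for Col6a1, Col6a2, Col6a3, Col6a4, Col6a6 (2 probes), Col15a1, Col18a1 and Col28a1, were not called. Of these Col6a1, a chain of the beaded filaments of collagen VI, read 148 units against 169 and 171. Its partner Col6a2 read 18.7 units against 72.1 and 121, with a log2 difference of -1.07 that was under 1 from the dimmer sensitive array.

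No laminin probe was called on either scale in limma, where 15.5% of all probes were called lower and 4.36% higher as deposited. Of all 26423 probes 13418 had an unadjusted limma p under 0.05, and 2 of the 11 laminin probes did. Lamc1, the gamma chain of most laminins, was the only one to reach 500 units, at 1109 units in resistant cells against 1431 and 1580 in sensitive cells (log2 difference -0.42, SE 0.22, limma adjusted p = 0.14; 0.15 after scaling). Lamb3, a chain of the epithelial laminin, read 35.8 units against 107 and 133 (-0.98, adjusted p = 0.013). Lamb2 read 90.2 units against 106 and 138, and Lamc3 46.7 against 95.7 and 97.6. The 7 probes of Lama1, Lama2, Lama3 (2 probes), Lama4, Lama5 and Lamb1 stayed below 50 units on all 3 arrays. A laminin needs an alpha, a beta and a gamma chain, and no alpha chain probe reached 30 units on any array.

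Nid2, a nidogen that links laminin to collagen IV, fell to 15.6 units in resistant cells, against 690 and 814 in sensitive cells (log2 difference -3.61, SE 0.26, limma adjusted p = 1.33e-07). The resistant value lay below that array's median. Its relative Nid1 had probes at 26.4 and 17.1 units on the resistant array, against 65.8 and 52.8 on the sensitive arrays for one and 3.73 and 6.60 for the other, and neither was called.

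Thrombospondins are secreted proteins that bind cells, collagens and latent TGF-beta, and Thbs1 restrains vessel growth. Thbs1 rose to 6396 units in resistant cells, against 64.6 and 73.9 in sensitive cells. Its log2 difference was 5.76 (SE 0.25, limma adjusted p = 1.16e-09), the 28th widest rise of all probes. Unlike Col9a1, Thbs1 read above 50 units on both sensitive arrays. The 4 probes of Thbs2, Thbs3 and Thbs4 were between 1.56 and 14.0 units on the resistant array and between -1.24 and 19.8 on the sensitive arrays, and none was called.

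Of the adhesive glycoproteins, fibronectin fell, vitronectin was lower as deposited and osteopontin was not called. Fn1, which encodes fibronectin, a main ligand of leukaemia cell integrins, read 7.78 units in resistant cells, against 376 and 331 in sensitive cells (log2 difference -2.80, SE 0.28, limma adjusted p = 2.89e-06). Vtn, which encodes vitronectin, an adhesive protein of blood and matrix, read 1686 units against 3750 and 4092; the difference was -1.19 (SE 0.21, limma adjusted p = 4.45e-04), and -0.61 with an adjusted p = 0.060 after scaling. Spp1, which encodes osteopontin, read 4737 units in resistant cells against 3963 and 6530. The resistant value of Spp1 lay between those of the sensitive arrays (log2 difference -0.10, SE 0.26, limma adjusted p = 0.78). Tnc, the tenascin of remodelling tissue, read 59.1 units against 58.4 and 73.9, and Sparc, a collagen-binding matricellular protein gene of stromal cells, read 3.11 units against -1.24 and 6.60.

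Bgn, which encodes biglycan, a small leucine-rich proteoglycan that binds collagen, fell to 18.7 units in resistant cells, against 170 and 208 in sensitive cells (log2 difference -1.80, SE 0.29, limma adjusted p = 2.05e-04). The related Dcn (2 probes) and Lum stayed below 41 units on all 3 arrays and were not called. Of the 6 probes that fell, 4 (Nid2, Fn1, Bgn and Col4a4) read below the median of the resistant array, where the offset bounds the size of a fall.

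Of the 9 genes with more than 1 probe, 8 had no probe called, and Col4a4 was the other. Over the whole set the resistant value lay below both sensitive values for 48 probes (67.1% of all probes did so) and above both for 14 (20.9% of all probes).

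The enzymes that modify and fold collagen were then examined, with the brightest probe standing for each gene. Over all 17742 genes, 5.21% rose and 10.2% fell. Of 30 measured genes of collagen maturation and crosslinking, 5 rose and 2 fell, with a median log2 difference of -0.06 against -0.33 over all genes. The genes with the widest rises were Ppib, Crtap and P3h1, which encode the subunits of the complex that hydroxylates the 3-position of proline in procollagen chains. Crtap, its scaffold, read 6015 units in resistant cells, against 1329 and 1591 in sensitive cells (log2 difference 2.01, SE 0.22, limma adjusted p = 6.73e-06). P3h1, the hydroxylase, read 2862 units against 871 and 295 (2.37, SE 0.40), and its second probe, at 1271 units against 211 and 239, rose too. Ppib, the cyclophilin of the complex, read 23528 units against -1.24 and -1.32 (8.92, SE 0.26), so its probe gave no signal in the parental line, although the gene is widely expressed. Whether that spot worked on the sensitive arrays was not tested.

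Plod3, a lysyl hydroxylase gene, also rose, at 11701 units against 3996 and 5138 (log2 difference 1.36), as did Pcolce2, an enhancer of procollagen cleavage (1.11). Loxl4, a crosslinking oxidase gene, fell to 21.8 units in resistant cells against 147 and 220 in sensitive cells (-1.68), and Adamts2, which trims procollagen, fell by 1.38 on the log2 scale. P4hb, which is both a prolyl hydroxylase subunit and a disulfide isomerase, read 50218 units against 29312 and 32527, and was called after scaling only. The chaperone gene Serpinh1, specific to collagen, was not called.

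**Figure D4:**
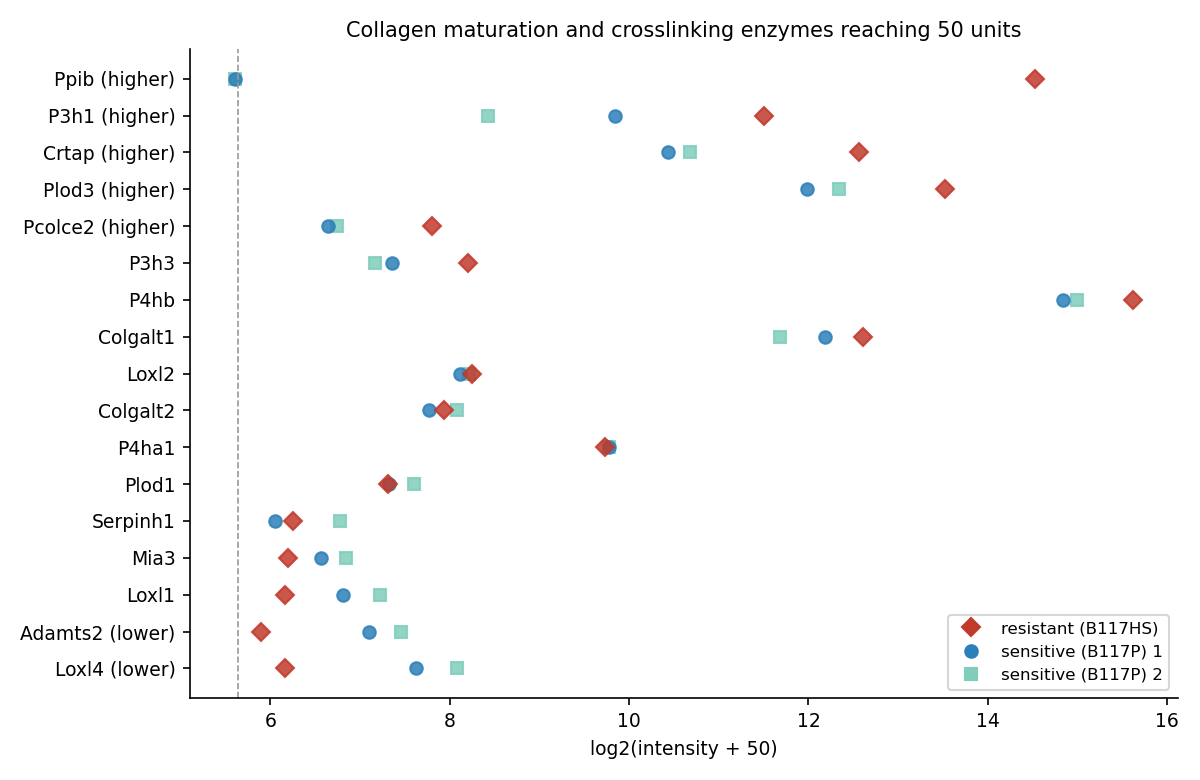
Values on the 3 arrays, as log2(intensity + 50), are plotted for the genes of collagen maturation and crosslinking that reached 50 units on any array, ordered by log2 difference; "higher" and "lower" mark calls on both scales, and the dashed line marks an intensity of 0. Ppib, P3h1 and Crtap lead the rises.

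Of 28 matrix protease and inhibitor genes, 5 rose and 2 fell, with a median log2 difference of -0.23. Adamts4, which cleaves cartilage proteoglycans, rose to 4939 units in resistant cells, against 17.4 and 27.7 in sensitive cells (log2 difference 6.11, SE 0.27, limma adjusted p = 1.18e-09). Plau, the urokinase that activates plasminogen, rose to 3449 units against 63.4 and 133, and Adamts1, which also cleaves proteoglycans, to 389 units against 6.21 and 9.23 (2.93). Mmp8, the neutrophil collagenase, moved the other way, to 176 units against 1153 and 1417 (-2.56). Reck, a membrane inhibitor of matrix proteases, fell by 1.40 on the log2 scale, and Mmp23 was called lower as deposited only (-1.25).

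Of 34 matrix receptor genes, 2 rose and 6 fell, with a median log2 difference of -0.42. Cd44, the receptor for hyaluronan, fell to 82.4 units in resistant cells, against 1009 and 993 in sensitive cells (log2 difference -2.99, SE 0.25, limma adjusted p = 4.13e-07). Sdc4, a syndecan that helps integrins bind fibronectin, fell by 2.88, and Itgb5, a vitronectin receptor subunit, fell by 2.18 on the log2 scale. Itgav, the alpha chain that pairs with it, rose to 4545 units in resistant cells against 1133 and 1249 in sensitive cells (1.89). Dag1, the dystroglycan that binds laminin, rose to 6496 units against 2236 and 1818 (1.66).

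Of 40 other matrix glycoprotein and proteoglycan genes, 6 rose and 3 fell, with a median log2 difference of -0.12. The matrilin genes Matn4 (745 units in resistant cells, against 6.21 and 44.8 in sensitive cells) and Matn2 (316 against 16.2 and 13.2) and the fibulin gene Fbln2 (478 against 13.7 and 10.6) rose by 2.50 or more on the log2 scale. These had read below 50 units in the parental line. Emilin2, an elastic fibre glycoprotein gene, fell to 1168 units in resistant cells, against 8479 and 12023 in sensitive cells (-3.06). Vwf, the platelet-binding von Willebrand factor gene, fell by 1.64 on the log2 scale, and Mgp, an inhibitor of calcification, was called lower as deposited only (-1.48).

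TGF-beta is the main inducer of matrix genes in stromal cells. Of 15 genes of its ligands, receptors and Smads, 2 rose and 2 fell, with a median log2 difference of -0.59. Tgfb3, a ligand, rose to 1201 units in resistant cells against 36.0 and 62.0 in sensitive cells (3.67), and Tgfbr3, the co-receptor betaglycan, to 1204 units against -2.48 and 9.23 (4.56). Of the signal transducers, Smad3 fell to 99.6 units in resistant cells, against 1218 and 1083 in sensitive cells, and Smad2 to 291 units against 1440 and 1793, while Smad4 was called lower as deposited only (-1.42).

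**Figure D5:**
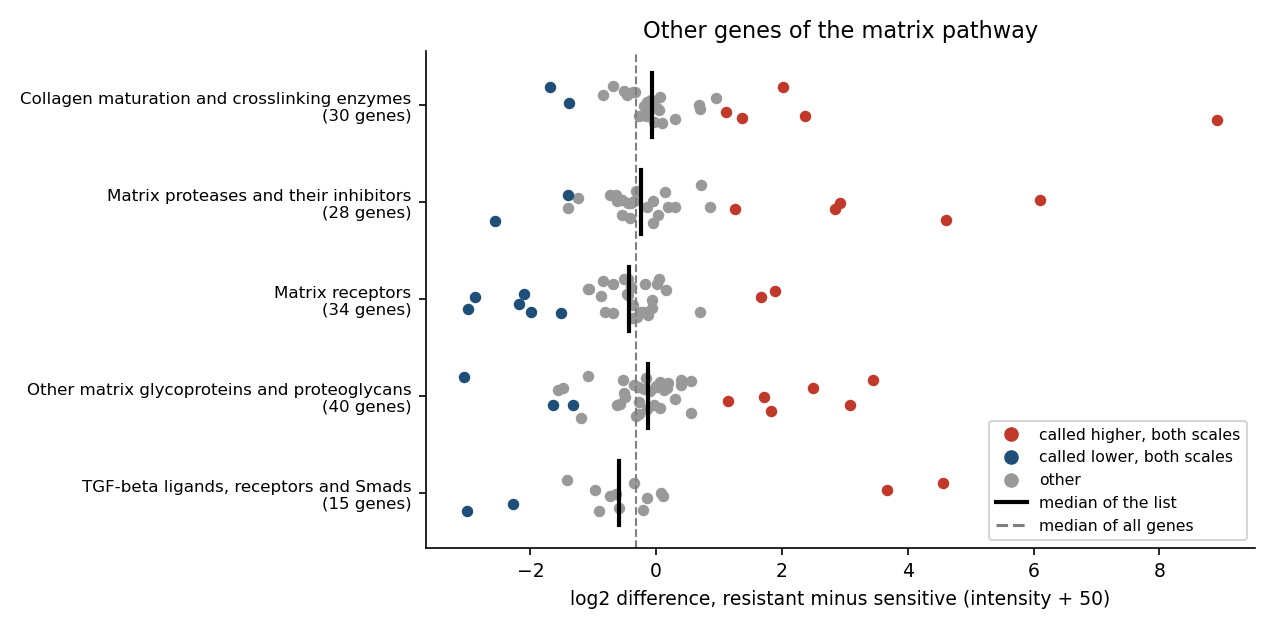
The log2 difference between the resistant array and the mean of the sensitive arrays is plotted for each gene of 5 matrix pathway lists; black bars mark each list's median and the dashed line the median of all genes, -0.33. Rises and falls occur in every list, and Ppib, Adamts4, Plau and Tgfbr3 lie farthest right.

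Markers of the cells that lay down matrix were read beside these results. The sums of intensity given below are of values as deposited, where the resistant array was the dimmer one. Scaling multiplied resistant values by 1.51, so the order of the arrays in a sum can depend on the scale. Of 12 fibroblast and stromal marker genes 1 rose (Pdgfra, at 112 units against 2.48 and 3.96) and 1 fell (Pdgfrb, at 23.3 against 261 and 203), and their summed intensity was 728 units on the resistant array against 801 and 1017 on the sensitive arrays. Acta2, a smooth muscle actin gene, read 504 units against 270 and 431 and was not called. Lepr, a marker of marrow stroma, read 45.1 units against 152 and 175 and was called lower as deposited only, while Cxcl12 read 12.4 units against 42.2 and 75.2 and Twist2 10.9 against 42.2 and 62.0, without a call. The other stromal genes, Prrx1, Twist1, Tagln, Fap, Pdpn and Dpt, were at or below 24 units on all 3 arrays. Of 13 osteoblast and chondrocyte markers none rose and 1 fell (Sp7, at 60.7 units against 403 and 332), with sums of 1489 units against 3348 and 2581. Runx2, a bone cell factor, made up most of those sums, at 1282 units against 2639 and 1934, without a call. The bone genes Bglap (23.3 units against 79.5 and 85.7), Alpl (9.33 against 32.3 and 68.6) and Ibsp (-3.11 against 12.4 and 6.60) were not called. Of the cartilage factors, Sox5 read 87.1 units against 89.5 and 104, Sox9 6.22 against 39.8 and 5.28, and Sox6 -4.67 against 16.2 and 3.96. The cartilage matrix genes Acan, Hapln1, Matn3, Cnmd and Ucma were at or below 16 units everywhere. Of 10 endothelial markers 2 rose (Kdr, at 1165 units against 171 and 200, and Flt1, at 7149 against 1871 and 1891) and 1 fell (Egfl7), with sums of 10757 against 6456 and 6775, while Pecam1 read 1590 units against 708 and 824 and was called higher after scaling only. Cldn5, at 48.2 units against 184 and 156, was called lower as deposited only. Cdh5 (9.33 units against 62.1 and 85.7), Esam (32.7 against 108 and 162) and Tie1 (14.0 against 49.7 and 63.3) were not called, and Tek and Emcn were at or below 18 units. Of 7 platelet and megakaryocyte markers none rose or fell on both scales, and their sums were 112 units against 335 and 389. Gp1ba, at 51.3 units against 175 and 248, was called lower as deposited only. Of 12 myeloid and leukocyte markers none rose and 2 fell (Spi1, -2.06, and Coro1a, -2.14), with sums of 120203 units against 131955 and 146466. Mpo made up most of those sums, at 80905 units against 76710 and 84138. Itgam (-1.89) and Runx1 (-1.24) were called lower as deposited only. Cebpa, at 961 units against 368 and 582, was called higher after scaling only. The part of these marker genes in the results above was not tested.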

How the data were processed

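Per the labels' protocols, antisense RNA was made with amino-allyl nucleotides, labelled with Cy5 and put on arrays of 1 colour. The deposited table holds a linear intensity for every probe on each of the 3 arrays. Values run down to -23.3, and at least 99.99% on each array were whole multiples of 1 step (within 0.02 steps). The sources used here do not name the scanner, its software, a background correction or a normalization, and no flags for failed, dim or saturated spots were used. The number of arrays limits the precision.

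Probes were named from the platform's symbols (20377 with 1 symbol, none with several, 6046 without), matched to current mouse genes for 20339 of them through GRCm38.p6, including all 76 members. The members and gene lists were chosen with earlier results of these data known. limma 3.58.1 in R 4.3.3 (lmFit, eBayes with a variance trend) was fitted to log2(intensity + 50) of all 26423 probes, with 1 residual degree of freedom and a prior of 13.1, after being tested on simulated data. Single values are given per array; SE is limma's. Members that were called on either scale or reached 500 units are given per array, others by range; of each further list, up to 3 genes per direction by the smaller difference from a sensitive array, with other genes named after their values were seen. Promoter windows come from RefSeq, which held 48 of the 66 genes. Tables and figures were made in Python 3.11.15 (pandas 2.3.3, matplotlib 3.10.9). Alternatives were other scalings, offsets, filters, probe choices, variance models, call rules and leaving out each sensitive array.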

Additional observations from a re-analysis of the deposited data

How the results depend on the processing

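All 13 member probes called as deposited kept their direction under every alternative run. The number called higher was 4 and ranged from 3 to 4 under all of them except a floor of 50 units in place of the offset, which left 1, Col9a1. The number called lower, 9 as deposited, was 4 after quantile normalization, 5 after centring on array medians, 14 with an offset of 16, 16 with the adjusted p alone and 4 at a log2 difference of at least 2. With the floor it was 0 in limma, although 10 members were lower by the size asked and 8 of them had an unadjusted p under 0.05; the prior there was 0.733 degrees of freedom, against 13.1 as deposited. After quantile normalization 6 calls missed the threshold: Col17a1 (log2 difference 2.04, adjusted p = 0.0501), Col19a1 (-3.38, 0.0569), Col7a1 (-0.73, 0.0743), Vtn (-0.70, 0.0760), Col4a4 (-1.13, 0.0995) and Col5a3 (-0.72, 0.227). Col4a4 lost the size asked with an offset of 100 and after centring. Leaving out either sensitive array left no residual degree of freedom, so sizes alone were counted: 4 higher, and 9 to 11 lower. Adjusted p-values moved far with the setting, for Col9a1 up to 0.0396 after quantile normalization. No paired analysis was possible because the resistant line had a single array and the labels name no pairs. No member had a value per replicate of the resistant line.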
